A study of Mus musculus with 8 samples.

Results

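Imprinted growth-control genes of the mouse lung were followed from just before to just after birth, in animals with and without Wfdc2. The 10 genes are H19, Igf2, Meg3, Dlk1, Peg3, Plagl1, Cdkn1c, Grb10, Mest and Igf2r, out of 25965 genes in the deposited values, and all 10 passed the filter on low levels that left 15627 genes to be tested. They were found by symbol and had been selected on their change in level between E18.5 and P1.5 in these same libraries, so that change is described below without a test. An imprinted gene is transcribed mainly from a single parental copy, the other copy being silenced by marks set in the germ line. Many imprinted genes regulate how fast the fetus grows. As a rule, genes active on the paternal copy promote growth and genes active on the maternal copy restrain it, and much of this converges on insulin-like growth factor 2 (IGF2), its receptors and inhibitors of the cell cycle. Several of these genes are abundant in the fetus and are turned down in many organs after birth.

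Total RNA was sequenced from whole lung of mice with the genotypes Wfdc2 +/+ and Wfdc2 GFP/GFP, at a late embryonic stage (E18.5) and just after birth (P1.5), with 2 libraries in each of the 4 groups and 8 in all. In the GFP allele a cassette encoding GFP replaces the start of Wfdc2, which encodes a secreted protease inhibitor of the whey acidic protein family. Homozygotes lack the gene in every cell from conception, so the lung was not altered alone. The cassette was introduced in TT2 embryonic stem cells, its selection marker was removed with a ubiquitous Cre, and homozygotes came from crosses of heterozygotes. The study calls the +/+ mice littermate controls. The design gives duplicate animals per group but not which animals shared a litter, and the main fit does not pair them. The p-values therefore measure only the spread between these samples, and stage cannot be told apart from litter or day of collection. Libraries ran on either of 2 Illumina sequencers, and the study does not say which library ran on which. Wfdc2 itself had 8038 to 32845 reads in the +/+ libraries and 0 to 12 in the GFP/GFP libraries. Library totals recovered from the deposited values were 19457646 to 37209334 reads, and they differ from the read totals the study lists. The recovered total of E18.5 GFP/GFP replicate 1 exceeds the raw reads listed for either library of that group.

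A pair of libraries stood apart from the rest of their groups. Replicate 1 of E18.5 GFP/GFP differed from its own replicate by a median of 0.619 on the log2 scale over the genes tested, against 0.135 between the E18.5 +/+ replicates. Replicate 2 of P1.5 +/+ differed from its own replicate by 0.588 and from replicate 2 of E18.5 GFP/GFP, the library nearest to it, by 0.304. The labels of these libraries were used as given, and whether they are right was not tested. Levels below are in RPKM, reads scaled to the length of the gene in kilobases and to the depth of the library, where the length is the whole span of a gene with introns, and differences are on the log2 RPKM scale. The median gene was at -0.32 across birth (P1.5 minus E18.5) on this scale, and at 0.15 once each library was centred on its median.

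H19 and Igf2 are neighbours on chromosome 7 of mm10, transcribed from opposite parental copies under shared enhancers. H19 (chr7:142575529-142578143, minus strand) is a maternally transcribed non-coding RNA that restrains growth. Igf2 (chr7:142650766-142666816, minus strand) is the paternally transcribed gene of the main fetal growth ligand. H19 holds a miRNA in an exon and Igf2 another in an intron. Their mature 5p sequences from RefSeq are shown because the reads counted on each host gene include the RNA from which the miRNA is cut. Capitals mark the seed, bases 2 to 8.
miR-675-5p, in H19: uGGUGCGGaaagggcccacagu
miR-483-5p, in Igf2: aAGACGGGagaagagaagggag
The seeds differ, and mature miRNAs were not analysed here.

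H19 stood at 406 and 370.0 RPKM in E18.5 +/+ lung, 959 and 558 RPKM in E18.5 GFP/GFP, 216 and 277 RPKM in P1.5 +/+, and 153 and 95.5 RPKM in P1.5 GFP/GFP. Igf2 stood at 34.7 and 34.0 RPKM in E18.5 +/+, 54.8 and 40.4 RPKM in E18.5 GFP/GFP, 23.4 and 24.0 RPKM in P1.5 +/+, and 12.1 and 9.42 RPKM in P1.5 GFP/GFP. For both genes the 4 groups fell in the same order without overlap, with E18.5 GFP/GFP highest, then E18.5 +/+, then P1.5 +/+, and P1.5 GFP/GFP lowest. With each library centred on its median H19 kept this order and Igf2 did not, P1.5 +/+ replicate 1 at 5.51 (log2) lying above both E18.5 +/+ libraries at 5.45 and 5.40. Averaged over the genotypes, H19 was 3.10-fold and Igf2 2.53-fold lower at P1.5 than at E18.5. In +/+ lung H19 was 1.59-fold lower and in GFP/GFP lung 6.05-fold lower. For Igf2 these values were 1.45-fold and 4.41-fold. In whole lung, fewer cells of a type that expresses a gene and less of its RNA per cell cannot be told apart.

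Markers of liver, heart, striated muscle, red cells and white cells differed between libraries as well. At E18.5 the heart markers summed to 186 RPKM in GFP/GFP replicate 2 and 16.2 to 43.3 RPKM in the other libraries. Striated muscle markers summed to 7.88 RPKM there and at most 2.33 RPKM in the other E18.5 libraries. That library also had the highest Meg3 and Dlk1, at 60.1 and 163 RPKM. E18.5 GFP/GFP replicate 1, at 21.2 RPKM for heart, had 44.2 RPKM of Meg3. The part of heart and muscle RNA in the members' levels was not tested. The summed level of 4 liver markers (Afp, Alb, Apoa1, Ttr) was 3.48 and 10.5 RPKM in the P1.5 +/+ libraries, where H19 and Igf2 were higher than in GFP/GFP. It was 0.348 to 0.406 RPKM in P1.5 GFP/GFP and 0.133 to 0.211 RPKM at E18.5. All 4 liver markers were above 0 in their change across birth. Between the P1.5 +/+ libraries, the library with the higher liver markers had 277 RPKM of H19 and 24.0 RPKM of Igf2, the other 216 and 23.4 RPKM. With each library centred on its median the direction turned, at 8.33 against 8.71 (log2) for H19 and 4.80 against 5.51 for Igf2. This sets 1 library against 1, and the library with more liver markers, replicate 2, is among those that stood apart. The newborn liver is itself rich in H19 and Igf2 as a matter of background, and the part of such RNA in the P1.5 levels was not tested. Erythroid markers differed between the genotypes at P1.5 too. The erythroid markers, of which 3 of 5 were in the file, summed to 940 and 813 RPKM in P1.5 +/+ and 2149 and 2612 RPKM in P1.5 GFP/GFP. At E18.5 they summed to 956 to 1144 RPKM, apart from 179 RPKM in GFP/GFP replicate 1. The 4 leukocyte markers summed to 918 and 406 RPKM in P1.5 +/+ and 708 and 490 RPKM in P1.5 GFP/GFP, so the genotypes overlapped. Their E18.5 sums were 111 to 157 RPKM, again apart from GFP/GFP replicate 1 at 37.3 RPKM. Of these, 1 marker, S100a8, was called higher across birth, and no erythroid or leukocyte marker was called by genotype. The part of blood cells in the members' levels was not tested.

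Meg3 and Dlk1 lie near each other on chromosome 12 and are likewise transcribed from opposite parental copies, Meg3 from the maternal and Dlk1 from the paternal. Meg3 (chr12:109541001-109571726, plus strand) is a long non-coding RNA that heads a cluster of maternally transcribed non-coding RNAs. Dlk1 (chr12:109452823-109463336, plus strand) encodes a membrane protein related to Notch ligands that holds precursor cells back from differentiating. The bases before the start of each, taken from the RefSeq promoters of GRCm38.p6 (the mm10 assembly), are shown because these neighbours took different courses. Capitals mark the letters TGACG, found in cAMP response elements, and TATAAA, the core of a TATA box, both searched on either strand and allowed to overlap.
Meg3, chr12:109540746-109540995, plus strand: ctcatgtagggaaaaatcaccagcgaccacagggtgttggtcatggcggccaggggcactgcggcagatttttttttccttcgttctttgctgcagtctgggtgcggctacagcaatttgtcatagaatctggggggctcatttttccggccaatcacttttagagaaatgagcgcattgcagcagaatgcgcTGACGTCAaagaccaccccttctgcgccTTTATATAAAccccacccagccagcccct
Dlk1, chr12:109452573-109452822, plus strand: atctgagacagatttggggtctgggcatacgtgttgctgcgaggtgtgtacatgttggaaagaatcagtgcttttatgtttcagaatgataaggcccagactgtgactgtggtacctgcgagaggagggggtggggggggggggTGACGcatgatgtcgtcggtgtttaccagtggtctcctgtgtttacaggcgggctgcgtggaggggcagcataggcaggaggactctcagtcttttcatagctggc
The Meg3 window shown held 2 overlapping matches to TATAAA, 2 overlapping matches to TGACG and 10 CpG. Meg3 has another RefSeq promoter, whose window (chr12:109545148-109545397) held 0 matches to TATAAA, 0 to TGACG and 0 CpG. The Dlk1 window held 0 matches to TATAAA, 1 match to TGACG and 8 CpG. Of all 32851 RefSeq promoters cut to the same 250 bases, 12.4% held TATAAA and 17.8% held TGACG, and the median number of CpG was 6.

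Meg3 stood at 10.5 and 11.0 RPKM in E18.5 +/+ lung, 44.2 and 60.1 RPKM in E18.5 GFP/GFP, 21.9 and 26.2 RPKM in P1.5 +/+, and 15.0 and 15.7 RPKM in P1.5 GFP/GFP. The range of each group was clear of the other 3. Its order of levels differed from that of H19 and Igf2, since E18.5 +/+ was the lowest group. Across birth the level was 1.16 higher on the log2 scale in +/+ lung and 3.36-fold lower in GFP/GFP lung. Averaged over the genotypes the change was -0.29, which turned to 0.18 with each library centred on its median and to 0.05 with limma's voom on the recovered reads. Of the 10 members, Meg3 alone had a higher mean at P1.5 than at E18.5 in +/+ lung. Its exons hold miR-770 among other miRNAs (miR-770-5p: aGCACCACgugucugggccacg).

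Dlk1 stood at 92.7 and 122 RPKM in E18.5 +/+, 62.5 and 163 RPKM in E18.5 GFP/GFP, 15.1 and 18.2 RPKM in P1.5 +/+, and 30.5 and 26.6 RPKM in P1.5 GFP/GFP. Every P1.5 library was below every E18.5 library, by 4.77-fold on average. The E18.5 GFP/GFP replicates lay on either side of the +/+ pair, and at P1.5 both GFP/GFP libraries lay above the +/+ pair. Dlk1 was 6.41-fold lower across birth in +/+ and 3.54-fold lower in GFP/GFP. With each gene centred on its own mean, Meg3 and Dlk1 differed over the 8 libraries by a root mean square of 1.40 on the log2 scale, and H19 and Igf2 by 0.268.

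Igf2r, Grb10 and Mest follow. Igf2r (chr17:12682406-12769664, minus strand) is the maternally transcribed receptor that carries IGF2 to lysosomes for breakdown. It stood at 4.16 and 4.02 RPKM in E18.5 +/+, 8.90 and 3.59 RPKM in E18.5 GFP/GFP, 0.533 and 1.96 RPKM in P1.5 +/+, and 0.906 and 1.28 RPKM in P1.5 GFP/GFP. All P1.5 libraries were below all E18.5 libraries, by 4.59-fold on average, so the clearance receptor and its ligand both stood lower after birth. Both P1.5 GFP/GFP values lay between the P1.5 +/+ replicates.

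Grb10 (chr11:11930508-12038683, minus strand) encodes an adaptor that binds the insulin and IGF1 receptors and dampens their signal, and outside the brain it is transcribed mainly from the maternal copy. It stood at 4.61 and 4.41 RPKM in E18.5 +/+, 11.2 and 4.03 RPKM in E18.5 GFP/GFP, 1.22 and 2.90 RPKM in P1.5 +/+, and 1.40 and 2.12 RPKM in P1.5 GFP/GFP. The level at P1.5 was 3.06-fold lower without overlap between the stages. Mest (chr6:30723547-30748455, plus strand) is a paternally transcribed gene of the alpha/beta hydrolase family that holds miR-335 in an intron. It stood at 47.3 and 43.9 RPKM in E18.5 +/+, 41.2 and 45.4 RPKM in E18.5 GFP/GFP, 4.17 and 19.3 RPKM in P1.5 +/+, and 9.05 and 9.08 RPKM in P1.5 GFP/GFP. Its average change, 4.92-fold lower at P1.5, was close to those of Dlk1 and Igf2r. Mest had the lowest change of the members in 9 of the 17 alternatives, Dlk1 in 6 and Igf2r in 2. The 4 libraries at E18.5 were close together, and the wide gap at P1.5 was between the +/+ replicates.

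**Figure D1:**
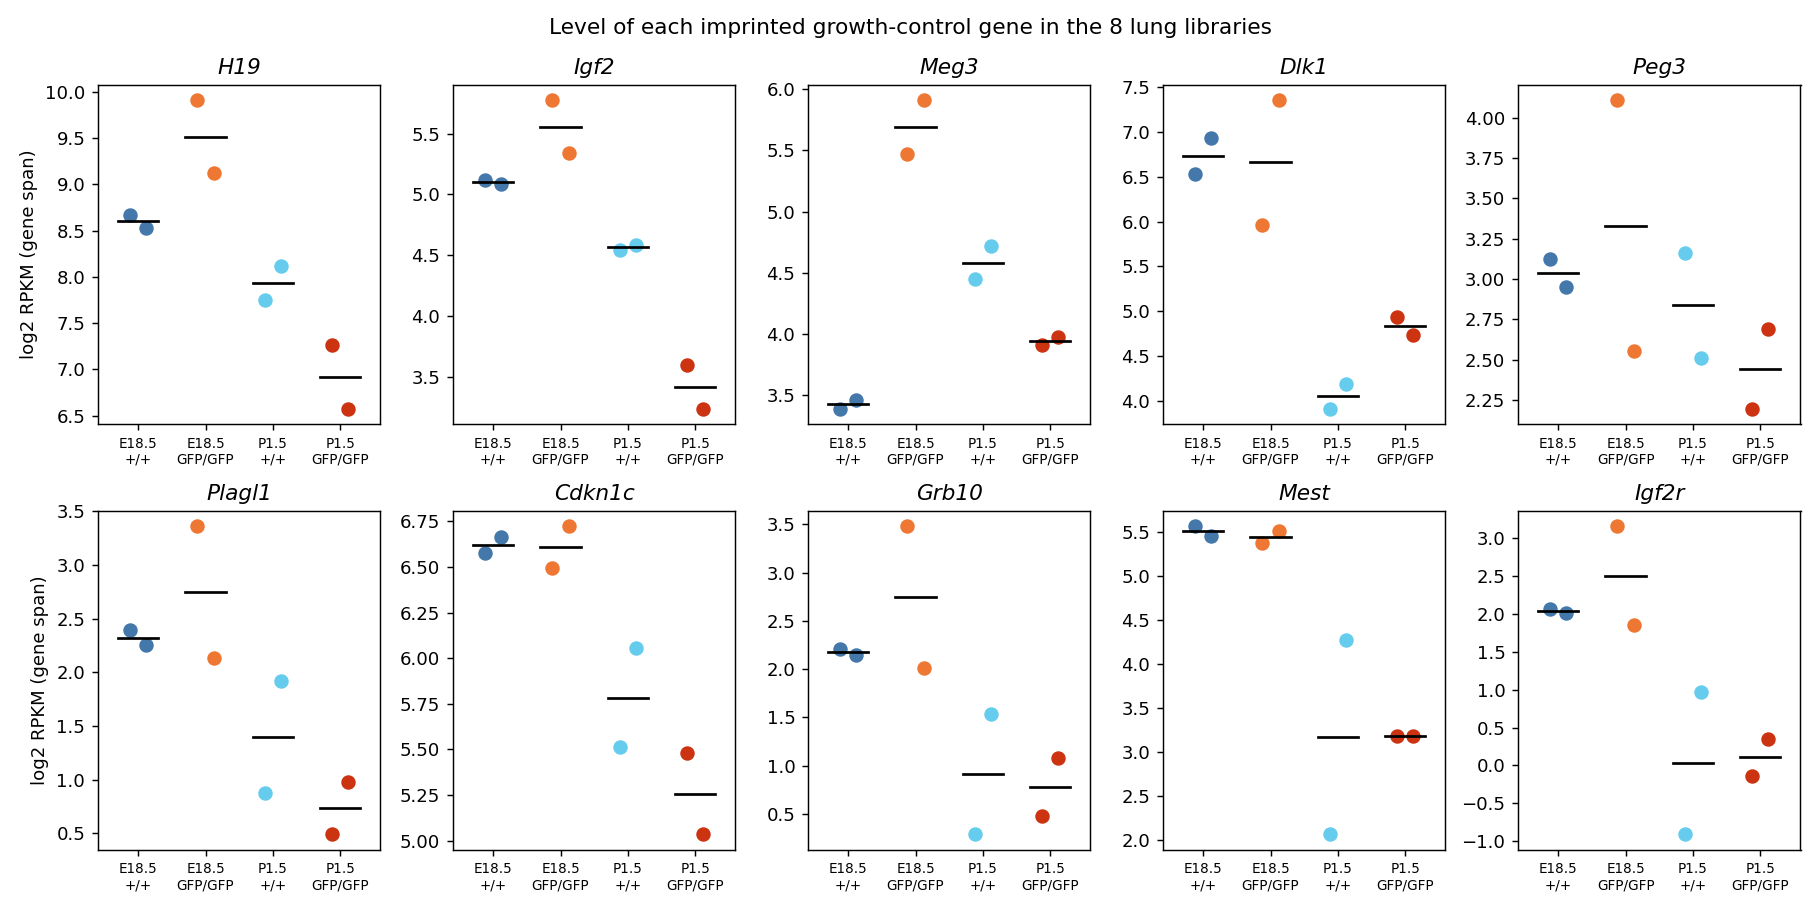
Level of each of the 10 genes in the 8 libraries (y axis, log2 RPKM over the gene span, with its own scale in each panel) by stage and genotype (x axis); points are libraries, with replicate 1 on the left, and bars are group means. H19 and Igf2 fall in the same order of groups, Meg3 is lowest in E18.5 +/+, and Mest, Grb10 and Igf2r spread most between the P1.5 +/+ libraries.

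Cdkn1c, Plagl1 and Peg3 complete the set. Cdkn1c (chr7:143458350-143461050, minus strand) encodes p57, a maternally transcribed inhibitor of cyclin-dependent kinases. It stood at 95.4 and 101 RPKM in E18.5 +/+, 90.1 and 106 RPKM in E18.5 GFP/GFP, 45.6 and 66.6 RPKM in P1.5 +/+, and 44.7 and 32.8 RPKM in P1.5 GFP/GFP. The genotypes overlapped at E18.5, both P1.5 GFP/GFP libraries were below both P1.5 +/+ libraries, and P1.5 was 2.13-fold lower than E18.5 on average.

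Plagl1 (chr10:13090691-13131694, plus strand) encodes a paternally transcribed zinc finger factor known to regulate other imprinted genes. It stood at 5.24 and 4.76 RPKM in E18.5 +/+, 10.3 and 4.39 RPKM in E18.5 GFP/GFP, 1.83 and 3.78 RPKM in P1.5 +/+, and 1.41 and 1.98 RPKM in P1.5 GFP/GFP. The stages did not overlap, and P1.5 was 2.77-fold lower on average. Plagl1 and Grb10 had the most similar courses of any 2 members, with a root mean square difference of 0.224. Peg3 (chr7:6703892-6730421, minus strand) encodes another paternally transcribed zinc finger protein. It stood at 8.70 and 7.72 RPKM in E18.5 +/+, 17.2 and 5.87 RPKM in E18.5 GFP/GFP, 8.93 and 5.71 RPKM in P1.5 +/+, and 4.58 and 6.44 RPKM in P1.5 GFP/GFP. Stages and genotypes overlapped for Peg3, and its average of -0.54 across birth became 0.01 without the libraries that stood apart.

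Across birth, 8 of the 10 members had every P1.5 library below every E18.5 library, the exceptions being Meg3 and Peg3. Of all genes tested, 13.7% had that pattern. With each library centred on its median, 6 members had it, Igf2 and Cdkn1c being lost, beside 8.65% of all genes. Nothing is read from this contrast for the members, since it chose them. Without the pair of libraries that stood apart the same 8 members had the pattern, and 39.3% of all genes did. The members' median was -1.54 on the log2 scale, from -2.30 for Mest to -0.29 for Meg3, beside -0.32 over all genes tested. In +/+ lung alone the members' median was -0.88 beside -0.15, and in GFP/GFP lung -1.99 beside -0.46. H19, Igf2, Cdkn1c, Plagl1, Grb10, Dlk1, Mest and Igf2r were below 0 under all 17 alternative settings tried. This only describes the value that chose them. No filter, the filter at 0.5 RPKM and the replicate block leave that value unchanged.

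**Figure D2:**
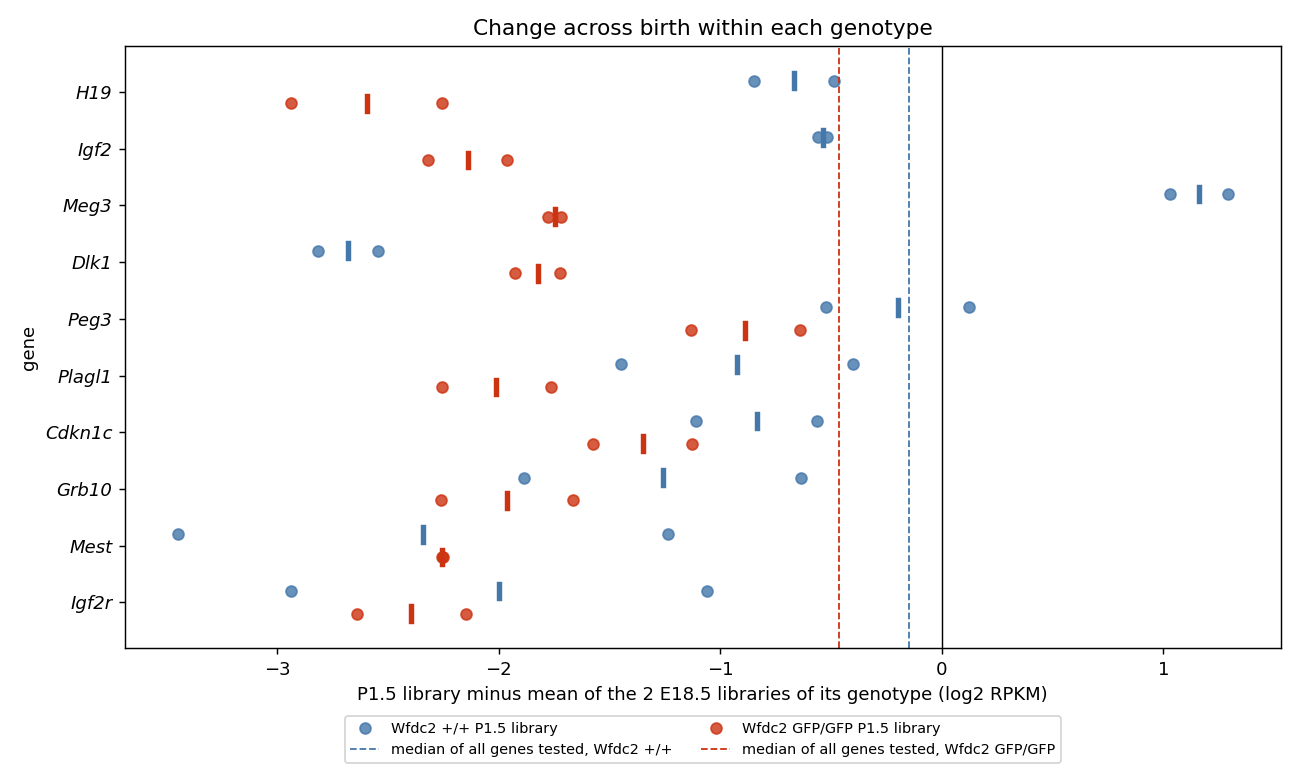
Change across birth for each member (y axis), as each P1.5 library minus the mean of the E18.5 libraries of the same genotype (x axis, log2 RPKM); points are libraries, vertical ticks are means and dashed lines mark the median of all genes tested in each genotype. Both GFP/GFP points lie below both +/+ points for H19, Igf2, Meg3, Peg3, Plagl1 and Cdkn1c, as for 35.4% of all genes tested, and above them for Dlk1, as for 14.9%. With each library centred on its median Peg3 and Cdkn1c lose this.

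The comparison of genotypes, which did not choose the members, asks whether loss of Wfdc2 goes with other levels of these genes. At E18.5 no member passed the threshold (0 of 10; limma, Benjamini-Hochberg adjusted p under 0.05), beside 0.0192% of all genes tested, and 1 member, Meg3, had an unadjusted p under 0.05, beside 4.37% of all genes. Meg3 was higher in GFP/GFP by 2.27 ± 0.29 (log2, SE; 2 libraries against 2), with an adjusted p of 0.154 by limma, and both GFP/GFP libraries were above both +/+ libraries. Over the alternatives its difference ran from 2.04 to 2.49. With all 8 libraries kept, its adjusted p by limma ran from 0.0526 with quantile normalization to 0.358 with median centring. Without either E18.5 +/+ library its adjusted p was higher still. H19 had a difference of 0.92 ± 0.43 and Igf2 of 0.45 ± 0.30 at this stage. The remaining members lay between -0.08 for Dlk1 and 0.57 for Grb10. The members' median was 0.44, beside 0.09 over all genes.

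At P1.5 again no member passed (0 of 10 by limma, beside 0.0128% of all genes), and 2 members, Igf2 and H19, had an unadjusted p under 0.05, beside 10.9% of all genes. Igf2 was at -1.15 ± 0.30 in GFP/GFP relative to +/+ (log2, SE), with an adjusted p of 0.302 by limma and a range of 0.0557 to 0.707 over the alternatives. H19 was at -1.01 ± 0.43, with an adjusted p of 0.452, and Meg3 at -0.64 ± 0.29. Dlk1 had the opposite sign, at 0.78 ± 0.46. Its adjusted p was 0.588. The members' median was -0.46, beside -0.20 over all genes. Without the pair of libraries that stood apart, 1 member passed at P1.5, Mest, at 1.12 with an adjusted p of 0.0434 by limma. In that fit 4.34% of all genes passed, and it rests on a single P1.5 +/+ library assumed to vary like the other groups. With all 8 libraries the difference for Mest was 0.01 ± 0.62.

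The difference between the genotypes' changes across birth was tested as an interaction. No member and no other gene passed (0 of 10 members, 0% of all genes, by limma; voom on the recovered reads also called 0 members), and 3 members had an unadjusted p under 0.05, beside 10.2% of all genes. These were Meg3 at -2.91 ± 0.41 (log2, SE; adjusted p 0.151 by limma), H19 at -1.93 ± 0.61 (adjusted p 0.341) and Igf2 at -1.60 ± 0.42 (adjusted p 0.271). All 3 had both GFP/GFP libraries above the +/+ pair at E18.5 and both below it at P1.5. That pattern was seen in 8.36% of all genes tested, those above at E18.5 being 26.5% (3 of 10 members) and those below at P1.5 26.9% (4 of 10 members, Cdkn1c included). An exact permutation test of 2 libraries against 2 cannot give a p below 0.33, so none was run. The interaction of the other 7 members ran from -1.09 for Plagl1 to 0.86 for Dlk1.

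**Figure D3:**
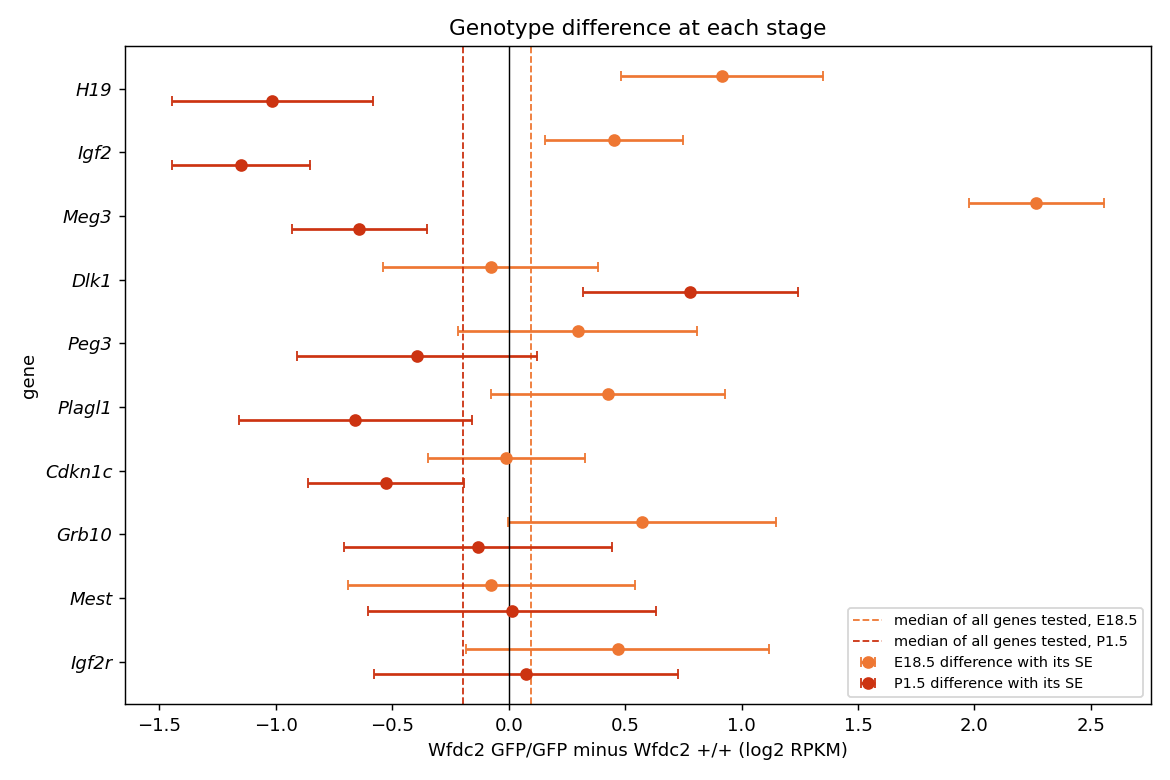
Wfdc2 GFP/GFP minus Wfdc2 +/+ for each member (y axis) at E18.5 and P1.5 (x axis, log2 RPKM); points are differences of group means, bars are SE from limma and dashed lines mark the median of all genes tested. Meg3 at E18.5 is the farthest from 0, at 2.27, and 8 of the 10 members, all but Cdkn1c and Igf2r, change sign between the stages, as do 58.8% of all genes tested.

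Levels of different members were compared as RPKM with the length of exons alone, joined over all transcripts of a gene in GENCODE M21. In E18.5 +/+ lung H19 was the most abundant, at a mean of 412, followed by Mest at 288, Dlk1 at 200, Cdkn1c at 130 and Igf2 at 96.4. Grb10 was at 53.7, Igf2r at 38.3, Plagl1 at 26.2, Meg3 at 18.2 and Peg3 at 16.3 on the same scale. In P1.5 GFP/GFP lung H19 was still the highest, at 132, Mest was at 57.2, Dlk1 at 53.1, Cdkn1c at 51.3 and Igf2 at 30.2. Reads in introns count in these values, which raises them. The joined exons can be longer than a single transcript, which lowers them. The values are therefore neither an upper nor a lower limit for spliced RNA.

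Of 41 other imprinted genes on a list, 37 were in the file and 32 were tested. This list and those that follow were chosen with earlier results of these data known, so their calls are not independent of those results. At P1.5 against E18.5, 1 of the 32 was called lower and 0 higher by limma, with 10 at an unadjusted p under 0.05. Over all genes 39.0% had an unadjusted p under 0.05 across birth, a background that holds for each list here. By adjusted p 2.56% were called lower and 2.58% higher, 400 and 403 genes, and with median centring 564 and 1278. The gene called was Gnas, which encodes the stimulatory G protein alpha subunit. It stood at 28.4 and 31.2 RPKM in E18.5 +/+, 29.6 and 40.0 RPKM in E18.5 GFP/GFP, 9.16 and 22.1 RPKM in P1.5 +/+, and 9.28 and 9.90 RPKM in P1.5 GFP/GFP. Gnas fell by 1.45 ± 0.30 (log2, SE; adjusted p 0.0426 by limma), with an adjusted p from 0.00295 to 0.158 over the alternatives. The call held in 9 of the 17 alternatives. It was lost with a pseudocount of 1 RPKM, with no filter, with median centring, and without either E18.5 +/+ library, E18.5 GFP/GFP replicate 1 or either P1.5 GFP/GFP library. With median centring the gene called in its place was H13, an intramembrane protease gene, which was higher at P1.5 by 1.10 (adjusted p 0.041). The list's median was -0.50, with 26 genes below 0 and 6 above. Without P1.5 +/+ replicate 2, 14 of the 32 genes were called lower and 3 higher, in a fit that called 35.0% of all genes lower and 10.6% higher.

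The IGF axis list holds the partners of IGF2 outside the imprinted set, and 18 of its 21 genes were tested. At P1.5 against E18.5, 1 gene was called lower and 0 higher by limma, with 6 at an unadjusted p under 0.05 and a median of -0.63. The gene called was Igf2bp1, a fetal RNA-binding protein that binds Igf2 mRNA. It stood at 0.498 and 0.567 RPKM in E18.5 +/+, 1.17 and 0.616 RPKM in E18.5 GFP/GFP, 0.284 and 0.372 RPKM in P1.5 +/+, and 0.221 and 0.232 RPKM in P1.5 GFP/GFP. All P1.5 values were below all E18.5 values. Igf2bp1 fell by 1.31 ± 0.30 (log2, SE; adjusted p 0.0499 by limma), with an adjusted p from 0.0089 to 0.179 over the alternatives and the call lost without any single library other than E18.5 GFP/GFP replicate 2 and P1.5 +/+ replicate 2. The call held in 4 of 16 alternatives. With median centring, quantile normalization or a filter at 0.5 RPKM the gene called in its place was Igfbp2, an IGF binding protein, which was higher at P1.5 by 1.59, 1.39 and 1.12 (adjusted p 0.0313, 0.0413 and 0.0383 by limma) and did not pass with the values as deposited (1.12, adjusted p 0.0588). The relatives of Igf2bp1, which are Igf2bp2 and Igf2bp3, were at -0.69 and -1.24 and did not pass (adjusted p 0.128 and 0.0637).

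The ligand Igf1, which takes over from IGF2 as the main growth ligand after birth, did not pass either. It was at -1.57 ± 0.70 (adjusted p 0.137 by limma), with 1.02 and 0.880 RPKM in E18.5 +/+, 1.34 and 0.510 RPKM in E18.5 GFP/GFP, 0.115 and 1.21 RPKM in P1.5 +/+, and 0.223 and 0.258 RPKM in P1.5 GFP/GFP. The receptors Igf1r and Insr were at -0.22 and -0.94 (adjusted p 0.701 and 0.0804). Without P1.5 +/+ replicate 2, 6 of the 18 genes were called lower and 3 higher, Igf1 among those called, beside 35.0% and 10.6% of all genes.

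The non-imprinted relatives of the members gave no call in either direction (0 of 9 by limma and 0 by voom, 6 at an unadjusted p under 0.05). Without P1.5 +/+ replicate 2, 6 were called lower and 1 higher, beside the same 35.0% and 10.6% of all genes. Dlk2, the relative of Dlk1, was at -2.74 ± 0.67 (adjusted p 0.0526), and Plag1 and Plagl2, relatives of Plagl1, were at -2.64 and -1.11. Cdkn1a, which encodes the p21 inhibitor and is a relative of Cdkn1c, was at 2.07 ± 0.61 (adjusted p 0.0636), with the P1.5 +/+ libraries at 33.6 and 5.02 RPKM and E18.5 +/+ at 2.77 and 3.20 RPKM. Cdkn1b, its other relative, was at -0.61. Grb7, Grb14 and M6pr, relatives of Grb10 and Igf2r, were at 0.05, -0.77 and -0.68.

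Of 9 fetal growth regulators 7 were tested, and 2 were called lower at P1.5, Hmga2 and Igf2bp1, with 0 called higher. Hmga2, a chromatin protein of fetal and proliferating cells, fell by 1.98 ± 0.41 (log2, SE; adjusted p 0.042 by limma), from 0.114 to 0.251 RPKM at E18.5 to 0.0175 to 0.0825 RPKM at P1.5, with an adjusted p from 0.00871 to 0.159 over the alternatives. The call held in 7 of 16 alternatives. It was lost with the replicate number as a block, with a pseudocount of 1 RPKM, with no filter, and without any single library other than E18.5 GFP/GFP replicate 2 and P1.5 +/+ replicate 2. The list's median was -1.31. Genes of cycling cells had a median of -1.37, with all 13 below 0, 8 at an unadjusted p under 0.05 and 0 called by limma. With the filter at 0.5 RPKM 6 were called lower, beside 943 of the 9422 genes left. With median centring 2 were called lower, and with quantile normalization or a pseudocount of 0.1 RPKM 1. Beside these, 564, 568 and 490 of 15627 genes were called lower. With a pseudocount of 1 RPKM, no filter or the replicate block 0 were called. With voom 1 was called lower, Ccnb1, and without P1.5 +/+ replicate 2 the count was 12, beside 35.0% of all genes called lower. No gene of these lists was called by genotype or in the interaction.

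**Figure D4:**
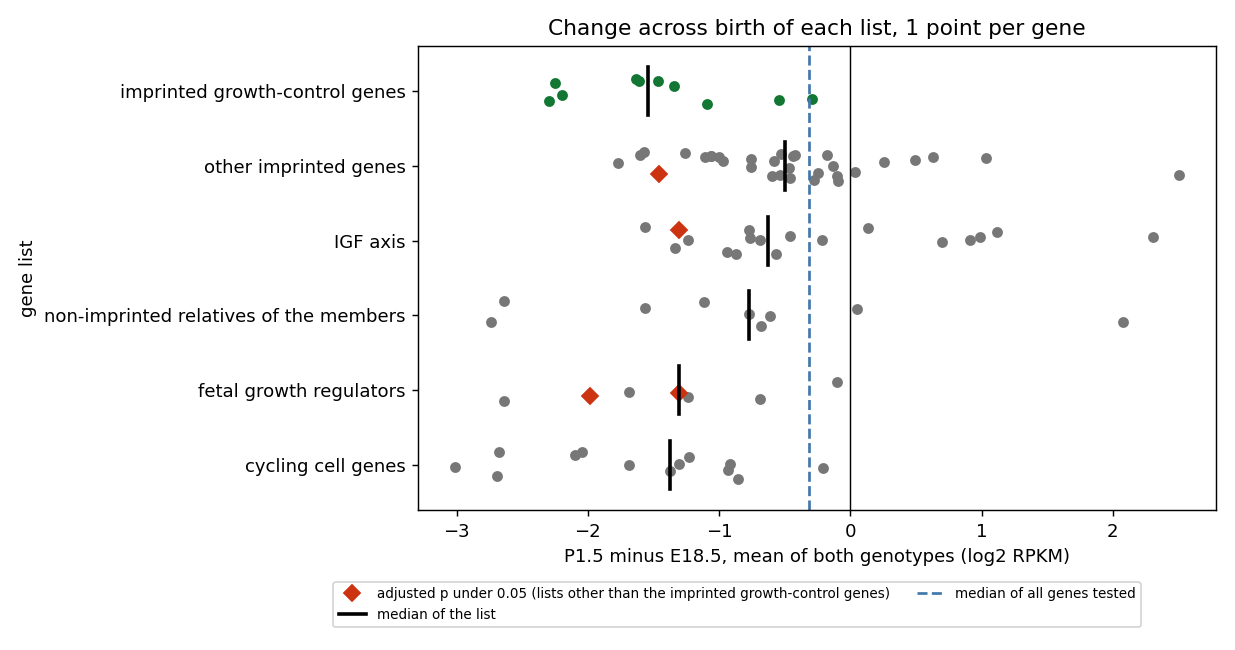
Change across birth (x axis, log2 RPKM, P1.5 minus E18.5, mean of both genotypes) of each gene in 6 lists (y axis, points spread at random within a list); bars are list medians, diamonds are genes called by limma and the dashed line is the median of all genes tested. The list medians run from -0.50 for the other imprinted genes to -1.54 for the imprinted growth-control genes, which were selected on this value.

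Markers of lung cell types were also compared between the stages, as RNA levels in whole lung and not as counts of cells. The 7 mesenchyme markers (Pdgfra, Pdgfrb, Col1a1, Col1a2, Col3a1, Tcf21, Tbx4) were all below 0 across birth, with a median of -1.24 and 1 called lower (Pdgfra, a receptor of fibroblast precursors, called in 7 of the 17 alternatives), and none was at 0 reads in any library. With the filter at 0.5 RPKM 3 of the 7 were called lower, beside 943 of the 9422 genes left. With quantile normalization or voom 2 were called lower, beside 568 and 726 of 15627 genes. With a pseudocount of 1 RPKM or no filter 0 were called. The summed level of the 7 markers was 262 to 289 RPKM in the 4 E18.5 libraries, 91.8 and 338 RPKM in P1.5 +/+, and 76.8 and 110 RPKM in P1.5 GFP/GFP. The P1.5 +/+ library with 338 RPKM is replicate 2, which had the higher level of its group for 9 of the 10 members, all but Peg3, and for 77.3% of all genes tested. With each library centred on its median it was higher for 4 members, Plagl1, Grb10, Mest and Igf2r, and for 43.7% of all genes. The 5 lung epithelium markers summed to 2223 to 6168 RPKM at E18.5 and 7912 to 20054 RPKM at P1.5, so markers of the labelled tissue were present in each library. Across birth their median was -0.08, with 3 of the 5 below 0, and Sftpc was the most abundant gene of all in every library but E18.5 GFP/GFP replicate 1. The part of cell composition in the members' levels was not tested.

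Genes that overlap members share reads with them unless strand was used in counting, which is not given in the sources used here. Igf2as, on the opposite strand, overlaps 44.4% of the Igf2 span and had 23 to 320 reads where Igf2 had 4424 to 32707. Copg2 overlaps 3.62% of Mest and had 548 to 3793 reads. Airn, the antisense RNA that silences the paternal Igf2r, overlaps 32.5% of the Igf2r span, and its 1015 to 12338 reads are close in number to the 1010 to 28892 of Igf2r. Airn stood at 0.871 and 0.712 RPKM in E18.5 +/+, 2.79 and 1.13 RPKM in E18.5 GFP/GFP, 0.499 and 2.17 RPKM in P1.5 +/+, and 0.369 and 0.303 RPKM in P1.5 GFP/GFP, so Igf2r and Airn levels are uncertain to that extent.

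The genes most like Igf2 in course, by the root mean square difference of log2 RPKM over the 8 libraries with each gene centred, were Morc4 (0.128), Tsnaxip1 (0.138), Arhgef19 (0.178), Ect2l (0.180) and Zfp386 (0.181). Those most like H19 were Dnahc10 (0.155), Plch2 (0.211), Lyplal1 (0.220), Igf2as (0.234) and Prdm11 (0.236). H19 and Igf2, at 0.268 from each other, were less alike than these.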

How the data were processed

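RNA from whole lung was sequenced from libraries made with a directional kit. Per the labels and the study's methods, the authors trimmed the reads (Trim Galore 0.4.0), mapped them to mm10 with TopHat 2.1.1 guided by mRNA coordinates and made counts per gene with SeqMonk. They deposited log2 RPKM, with 1 column for each library. The values show that the length used is the whole gene span and that 0.9 read stands in for 0 reads. Reads were recovered as whole multiples of each library's step, 99.86% to 99.96% of values falling within 0.02 of a whole number. Depth by these recovered totals ran from 19457646 to 37209334 reads, so 3 reads correspond to 0.0806 to 0.154 RPM. Counting error is the only error these depths set.

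Genes whose mean reached 0.05 RPKM were fitted with limma 3.58.1 (R 4.3.3), with 1 mean per group from the sample labels, all 8 libraries, 4 residual degrees of freedom and limma's trend option. No pseudocount was used. P-values are two-sided and Benjamini-Hochberg adjusted over all 15627 genes, with a threshold of 0.05. The fit was tested on simulated data. The members and gene lists were chosen with earlier results of these data known. Named outside the members were the called genes of each list, the IGF1 and insulin receptors with Igf1 and Igf2bp1 to Igf2bp3, the members' relatives, overlapping genes and the 5 genes most like Igf2 and H19. H13, Igfbp2 and the markers of liver, heart, striated muscle, mesenchyme and blood cells were named after their values were seen. Alternatives were pseudocounts of 0.1 and 1 RPKM, no filter, a filter at 0.5 RPKM, quantile normalization, median centring, the replicate number as a block, voom with TMM factors on the recovered reads, and each library left out. Leaving out both libraries that stood apart was added after seeing the data. Promoters and miRNAs are from RefSeq, and sequences of H19 and Cdkn1c promoters were not used here. Tables and figures used Python 3.11.15, numpy 2.4.6, pandas 2.3.3 and matplotlib 3.10.9.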

Additional observations from a re-analysis of the deposited data

Results flagged for a closer look

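In 3 members the genotype difference had opposite signs at the 2 stages without overlap. Every GFP/GFP library lay above both +/+ libraries at E18.5 and below both at P1.5. Of all genes tested, 8.36% had that pattern. The genotype difference at P1.5 minus that at E18.5, which is the interaction (log2), was -2.91 for Meg3, -1.93 for H19 and -1.60 for Igf2. The interaction test in limma gave adjusted p-values of 0.151, 0.341 and 0.271, so none passed the threshold. Over the alternatives the interaction kept its sign, from -3.27 to -2.50 for Meg3, from -2.50 to -1.36 for H19 and from -1.82 to -1.19 for Igf2. Without the pair of libraries that stood apart, H19, Igf2 and Meg3 still had the pattern and Cdkn1c had it too, as did 21.9% of all genes tested.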

How the results depend on the processing

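No member was called by genotype at E18.5 or in the interaction under any of the 17 alternatives, and at P1.5 the count was 1 (Mest) without both libraries that stood apart and 0 otherwise. The members' median change across birth was -1.25 with a pseudocount of 1 RPKM, -1.07 with median centring, -1.19 with voom, and from -1.80 to -1.24 with a library left out. Other imprinted genes called across birth numbered 0 with a pseudocount of 1 RPKM or no filter, 4 with voom, 0 to 17 with a library left out and 18 without both. For the IGF axis the count was 0 with either pseudocount or no filter, 2 with voom, 0 to 9 with a library left out and 12 without both. The low counts of calls with a library left out come with fewer samples, and the cause of the high ones was not tested.

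Same-numbered libraries of the genotypes deviated together (r = 0.23 at E18.5 and 0.21 at P1.5, over genes), but the labels do not say that a number marks a litter. With the replicate number as a block the counts were 0 for the IGF axis, 0 for the fetal growth regulators, 0 for the mesenchyme markers and 1 for other imprinted genes, and all genes called across birth were 181 higher and 106 lower.

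Small genotype differences changed sign. At E18.5 they were 0.066 for Dlk1, 0.16 for Cdkn1c and 0.012 for Mest with quantile normalization, and 0.61 for Dlk1, -0.48 for Peg3, -0.19 for Plagl1, 0.11 for Cdkn1c, -0.16 for Grb10 and -0.19 for Igf2r without both libraries. With a library left out they ran from -0.77 to 0.61 for Dlk1, -0.48 to 1.07 for Peg3, -0.19 to 1.04 for Plagl1, -0.13 to 0.11 for Cdkn1c, -0.16 to 1.31 for Grb10 and -0.19 to 1.12 for Igf2r. At P1.5 Grb10 was at 0.070 with median centring, 0.011 with voom and 0.49 without both, Mest at -0.18 with quantile normalization, and Mest at -0.026 and Igf2r at -0.032 with a pseudocount of 1 RPKM. The ranges with a library left out were -0.75 to 0.49 for Grb10, -1.09 to 1.12 for Mest and -0.87 to 1.01 for Igf2r. In the interaction Mest was at -0.19 with quantile normalization, Igf2r at 0.016 with median centring, and without both Plagl1 was at 0.050, Grb10 at 0.66 and Igf2r at 1.20. The ranges with a library left out were -1.47 to 0.088 for Peg3, -1.44 to 0.033 for Grb10, -1.02 to 1.20 for Mest and -1.33 to 0.55 for Igf2r. Where a group was left with 1 library, it was assumed to vary like the other groups. H19, Igf2 and Meg3 kept their sign in all 3 genotype contrasts under every alternative run. Several alternatives cannot change these differences. They are no filter, the filter at 0.5 RPKM, the replicate block and, within a stage, leaving out a library of the other stage.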
